A study of Mus musculus with 4 samples.

Results

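Tox, Tox2, Nr4a1, Nr4a2, Nr4a3, Nfatc1, Batf and Irf4 are 8 of the 17561 genes in a single-cell table of CD8+ T cells, chosen as a named list of transcription factors tied to T cell exhaustion. The cells were sorted by flow cytometry from mouse BM at week 4 after SCT, and expression and the TCR were read in the same cells. Recipients were myeloma-bearing mice (Vk12653) on a C57BL/6 background, either WT or transgenic for a modified cereblon (CRBN) through which lenalidomide can act in mouse cells, and all received genetically matched grafts. The 4 treatment groups were isotype control with vehicle, isotype control with lenalidomide, TIGIT inhibition with vehicle, and TIGIT inhibition with lenalidomide. Antibody was given from the day of transplant and lenalidomide or vehicle from day 14 to harvest on day 28. Each group is 1 library from 5 pooled mice, so mice cannot be told apart within a library and no group has a replicate. The table numbers its libraries 1 to 4 without naming a treatment, so values below are given by library number, treatments are not compared, and no test was run.

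The 4 libraries held 4237, 2003, 1725 and 3789 cells, with a median of 7115 to 7669 UMIs per cell. The authors divided the 11754 cells into 8 clusters, here under their names, some of them reworded: Tn (naive), Tcm (central memory), transitory Teff, GzmB+ Teff, GzmA+ Tex, TIM-3+ Tex, TIGIT+ Teff and cycling cells. The authors' label for the cycling cells, Tex_Cycling, also names them as exhausted. The authors had kept only cells with CD3 and CD8 gene expression. At least 1 of 4 CD8 T cell genes therefore had UMIs in 99.1 to 100% of the cells of every cluster. Tcm stood apart from Tn in Cd8b1 (52.0% of cells against 95.9%), Cd8a (79.8% against 88.1%) and Il7r (9.13% against 74.1%). Levels are CPM, a gene's UMIs divided by all UMIs of the same cells and scaled to a common total. Havcr2, which encodes TIM-3, was highest in TIGIT+ Teff at 78.8 CPM and TIM-3+ Tex at 76.7, against 1.01 in Tn. Tigit was higher in TIM-3+ Tex (567 CPM) than in the cluster named for it (313), and Gzma too was higher in TIM-3+ Tex (1192) than in GzmA+ Tex (684). Between libraries 56 cell barcode sequences recurred, in 112 cells. The clusters were made from the same expression values, so differences between clusters are descriptions.

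TOX and TOX2 are HMG-box proteins that open and maintain the chromatin program of exhausted T cells under chronic antigen. NR4A1, NR4A2 and NR4A3 are orphan nuclear receptors whose genes are switched on within hours of TCR engagement and which repress effector genes when the signal persists. NFATc1 carries the calcium and calcineurin signal into the nucleus, and BATF is a leucine-zipper factor that binds DNA with IRF4, a factor whose amount follows the strength of the TCR signal.

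Tox (ENSMUSG00000041272) spans 305 kb on the minus strand of chr4:6686353-6991557 (mm10/GRCm38, GENCODE M21), and was lowest in Tn, with TIGIT+ Teff and TIM-3+ Tex at the top. In Tn it stood at 41.4, 48.7, 34.3 and 37.1 CPM in libraries 1 to 4. In TIM-3+ Tex it reached 514, 470, 491 and 417 CPM, every library far above its own Tn, a fold of 11.8 over the summed libraries (log2 ratio 3.56, interval 3.42 to 3.70). Intervals are 95% and cover counting error only. A higher sum over a cluster can come from more cells with the transcript or from more transcripts per cell. Tox had a UMI in 93.5% of TIM-3+ Tex cells and 23.0% of Tn cells, whose median depths were 8433 and 7834 UMIs, and in 67.2% and 9.99% once every cell was thinned to 2500 UMIs. The other clusters followed in the order TIGIT+ Teff (462 CPM over all libraries), transitory Teff (324), cycling cells (314), GzmA+ Tex (291), GzmB+ Teff (180) and Tcm (64.3). A neighbour was higher in 4 of 4 libraries at most steps. The exceptions were TIM-3+ Tex above TIGIT+ Teff in 3 libraries and transitory Teff above cycling cells in 2, so those pairs are not ordered beyond the spread of the libraries.

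Tox2 (ENSMUSG00000074607) lies on chr2:163203125-163324170 (plus strand) and was close to its floor in resting cells. Tn held 2.74, 1.2, 0.745 and 1.27 CPM by library, 16 UMIs in all, and Tcm 1.79 CPM over all libraries. TIM-3+ Tex held 92.3, 81.2, 62.5 and 65.2 CPM, a 54.7-fold difference from Tn with a wide interval (log2 5.77, 5.07 to 6.59) set by the few naive UMIs. The share of cells with a Tox2 UMI was 45.7% in TIM-3+ Tex and 1.04% in Tn (19.6% and 0.149% after thinning). Cycling cells had nearly the same share as TIM-3+ Tex (44.2%) at a median of 13959 UMIs per cell, but 13.3% after thinning. Tox2 also had a library pattern: in 7 of 8 clusters library 1 was the highest, and in 7 of 8 library 3 was the lowest.

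The 3 NR4A genes are Nr4a1 (ENSMUSG00000023034, chr15:101254269-101274795, plus), Nr4a2 (ENSMUSG00000026826, chr2:57106830-57124003, minus) and Nr4a3 (ENSMUSG00000028341, chr4:48045153-48086447, plus). Their promoters are shown because the 3 genes are known as a family of early TCR-responsive genes and yet differed from each other across the clusters. The 250 bases before the RefSeq start (GRCm38.p6) of each are printed 5′ to 3′ on the gene's strand, with capitals marking TGACG or its complement CGTCA, the core of the cyclic AMP response element that CREB binds. The windows are chr15:101266596-101266845 (plus), chr2:57124004-57124253 (minus) and chr4:48045055-48045304 (plus).
Nr4a1: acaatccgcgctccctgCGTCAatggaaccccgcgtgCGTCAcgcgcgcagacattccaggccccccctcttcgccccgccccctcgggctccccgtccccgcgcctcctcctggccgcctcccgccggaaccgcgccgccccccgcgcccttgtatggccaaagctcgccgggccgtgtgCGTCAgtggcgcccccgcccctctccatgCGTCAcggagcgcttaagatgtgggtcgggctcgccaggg
Nr4a2: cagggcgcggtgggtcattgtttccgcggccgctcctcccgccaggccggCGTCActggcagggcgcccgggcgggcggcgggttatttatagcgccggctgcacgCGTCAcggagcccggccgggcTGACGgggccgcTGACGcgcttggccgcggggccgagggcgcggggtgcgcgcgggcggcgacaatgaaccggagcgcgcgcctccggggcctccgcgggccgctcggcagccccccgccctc
Nr4a3: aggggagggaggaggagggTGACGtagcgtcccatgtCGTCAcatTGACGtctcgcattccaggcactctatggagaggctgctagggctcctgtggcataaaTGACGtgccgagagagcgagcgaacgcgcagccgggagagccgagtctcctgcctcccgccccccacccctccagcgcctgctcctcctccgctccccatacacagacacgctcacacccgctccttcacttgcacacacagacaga
Each window held 4 matches, counted on both strands, against a mean of 0.225 over 32851 promoter windows of that length, of which 17.8% held at least 1 and 45 (0.137%) at least 4. The full element TGACGTCA, which contains a match on either strand, was in none of the 3 and in 1.55% of all windows. The NFAT core GGAAA occurred once in the Nr4a2 window, in neither of the other NR4A windows, and in 55.6% of all. The AP-1 site TGANTCA (6.75% of all windows) and the NR4A monomer site AAAGGTCA (1.34%) had no match in the 10 windows read. These windows cover 6 of the 8 genes, with none read for Tox or Nfatc1. These matches are letters in a window, not measured binding.

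Nr4a2 was lowest in Tn and, over all libraries, highest in TIM-3+ Tex. It measured 10.2, 18.8, 14.5 and 6.98 CPM in Tn by library. TIM-3+ Tex held 320, 292, 444 and 221 CPM, a fold of 23.2 (log2 4.54, 4.29 to 4.8), and 75.9% of its cells had a UMI against 8.05% in Tn (41.6% and 3.06% thinned). TIGIT+ Teff (232 CPM), GzmA+ Tex (170), cycling cells (129), transitory Teff (122) and GzmB+ Teff (75.3) stood between, and Tcm at 31.7 CPM was above Tn in 4 of 4 libraries. Nr4a2 was the 1 gene of the 8 at least 2-fold higher in Tcm than in Tn in every library, where 2.14% of genes tested were.

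Nr4a1, the receptor often used as a reporter of recent TCR signalling, had no stable order across most clusters. In Tn it ranged from 4.69 CPM in library 1 to 23.6 in library 2, with 18.6 and 9.51 in libraries 3 and 4. In TIM-3+ Tex the 4 values were 26.4, 10, 50 and 23.3 CPM, the third from 31 cells, and library 2 ran opposite to the others (log2 2.49, -1.24, 1.43 and 1.29). The groups overlap, and over all cells the levels were 23.2 and 13.9 CPM (log2 0.75, 0.45 to 1.05). TIGIT+ Teff (23.4 CPM), transitory Teff (23.3) and TIM-3+ Tex were close to each other over the summed libraries, and Tcm was the lowest at 7.18 CPM. By library, TIGIT+ Teff was above transitory Teff in 4 of 4, but the counting intervals overlapped in each library.

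Nr4a3 had its highest level outside the TIM-3+ Tex cells. It was at 5.47, 7.19, 6.33 and 9.83 CPM in Tn and 11.1, 6.67, 6.25 and 10.8 in TIM-3+ Tex, overlapping ranges. TIGIT+ Teff held 20, 22.1 and 24.4 CPM in libraries 1, 3 and 4 and 4.56 in library 2, where the value rests on 2 UMIs. Tcm stood at 10.1, 15.7, 14.3 and 16 CPM, above Tn in each library (log2 0.88, 1.13, 1.17 and 0.71). Nr4a1 was lower in Tcm than in Tn in libraries 2 to 4 and higher in library 1 (log2 0.66, -2.23, -1.05 and -0.41, and -0.95 over all cells).

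Nfatc1 (ENSMUSG00000033016, chr18:80606205-80713071, minus) varied little between libraries in Tn, TIM-3+ Tex and TIGIT+ Teff and more in cycling cells (176, 142, 192 and 128 CPM). Tn held 69.6, 69.1, 62.2 and 63.7 CPM and TIM-3+ Tex 205, 201, 225 and 215, without overlap and 3.16-fold apart (log2 1.66, 1.54 to 1.79). Its highest cluster was TIGIT+ Teff at 289, 319, 284 and 282 CPM, above TIM-3+ Tex in 4 of 4 libraries. A UMI was found in 78.8% of TIGIT+ Teff, 76.5% of TIM-3+ Tex and 38.8% of Tn cells, although TIGIT+ Teff cells had a median of 6047 UMIs.

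Batf (ENSMUSG00000034266, chr12:85686669-85709087, plus) differed little between the resting clusters, Tcm being slightly above Tn in 4 of 4 libraries, and was higher in all others. Tn had 44.6, 39.2, 34.6 and 39.9 CPM and Tcm 46.2, 46.5, 47.5 and 46.9. TIM-3+ Tex had 199, 251, 284 and 211 CPM, 5.43-fold above Tn (log2 2.44, 2.29 to 2.59). Unlike its partner Irf4, Batf was lower in TIGIT+ Teff (116, 164, 78.8 and 138 CPM) than in TIM-3+ Tex in every library.

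Irf4 (ENSMUSG00000021356, chr13:30749226-30766976, plus) was sparse, with 28 UMIs among all Tn cells. Tn had 1.56, 4.40, 0.745 and 3.49 CPM, and TIM-3+ Tex 19.6, 21.1, 12.5 and 19.5, a fold of 7.64 (log2 2.93, 2.36 to 3.56). TIGIT+ Teff had 33.4, 31.9, 28.4 and 12.2 CPM, above TIM-3+ Tex in 3 of 4 libraries. Irf4 UMIs were seen in 16.8% of TIGIT+ Teff, 15% of TIM-3+ Tex and 1.64% of Tn cells.

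**Figure D1:**
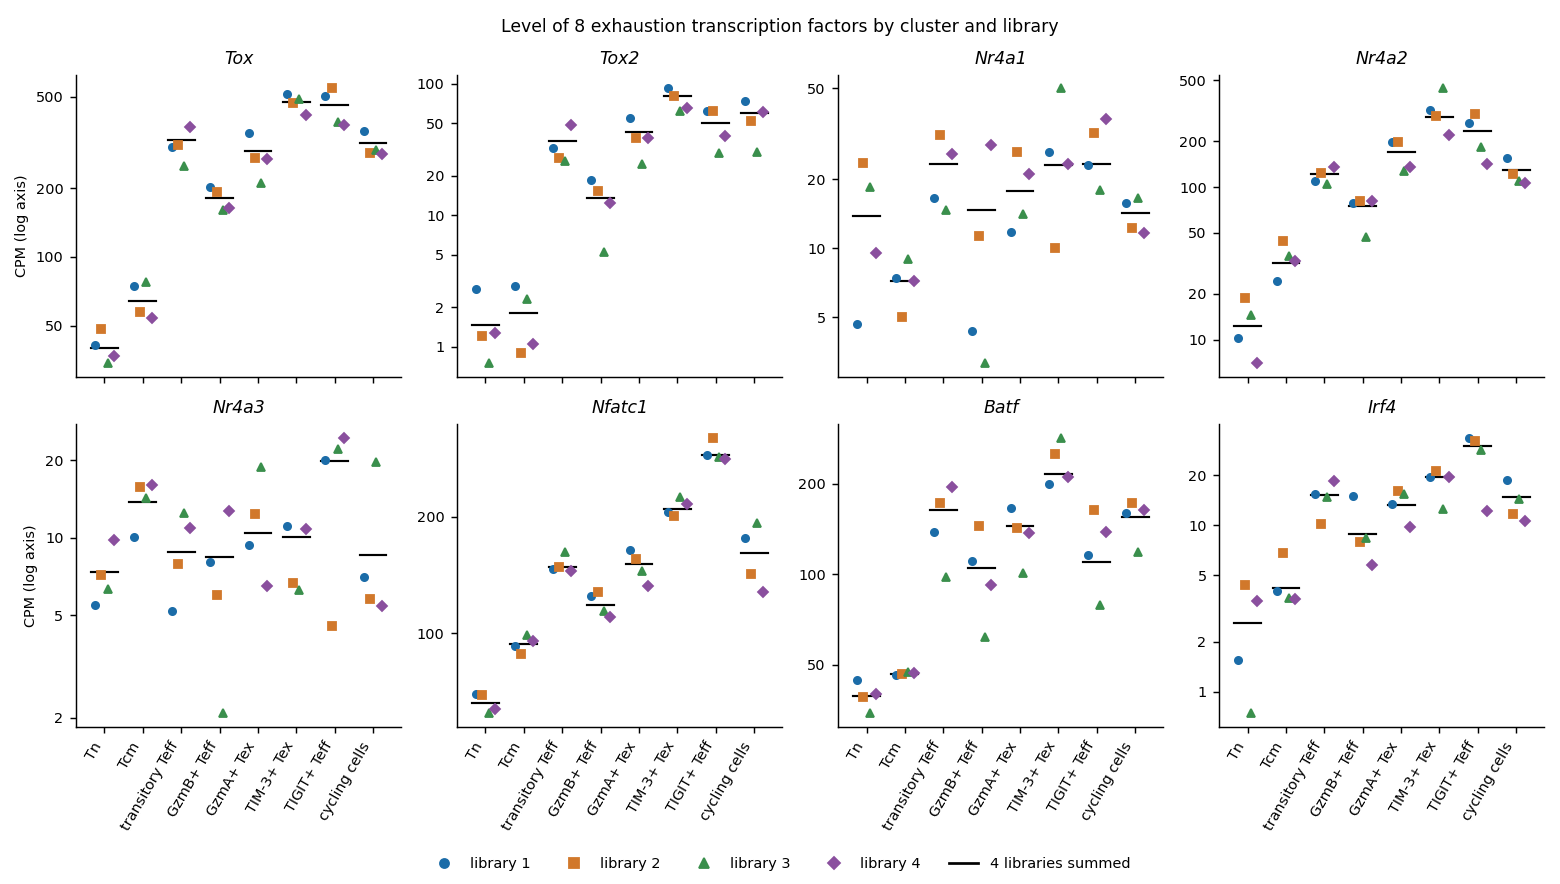
Each panel plots 1 gene, with the 8 clusters on the x axis and CPM on a log y axis, symbols for libraries 1 to 4 and a bar for the 4 libraries summed. Tox, Tox2, Nr4a2, Nfatc1, Batf and Irf4 are low in Tn and Tcm and high in TIM-3+ Tex, whereas the library symbols of Nr4a1 and Nr4a3 spread across most of each panel.

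A gene is called higher here where its CPM was at least 2-fold higher in each of the 4 libraries. All 8 genes passed the filter of 5 CPM over all cells. From Tn to TIM-3+ Tex, 6 of the 8 were called, all but Nr4a1 and Nr4a3, against 5.59% of 8960 genes tested. The median log2 ratio of the 8 was 2.69 and that of all genes 0.27. From Tn to transitory Teff the same 6 genes were called, against 3.95% of all genes. Tox was already at 303, 308, 249 and 370 CPM in transitory Teff (log2 3.01, 2.87 to 3.16), and Tox2 at 32.2, 27.0, 25.8 and 48.6 (log2 4.64, 3.92 to 5.46). Both comparisons share the Tn cells.

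Between transitory Teff and TIM-3+ Tex the differences were smaller and library 4 set itself apart. None of the 8 genes was called, against 0.357% of all genes. Nr4a2 was 1.53, 1.24, 2.07 and 0.70 higher on the log2 scale in libraries 1 to 4, and Tox2 1.52, 1.59, 1.28 and 0.42. Without library 4 both were called. Library 4 had the highest transitory Teff levels of Tox, Tox2 and Nr4a2 of the 4 libraries, and the lowest TIM-3+ Tex levels of Tox and Nr4a2. Nfatc1 differed by nearly the same amount in each library (0.49, 0.44, 0.47 and 0.57), and Nr4a1 showed no common direction (0.67, -1.64, 1.76 and -0.14). In GzmB+ Teff all 8 genes were below transitory Teff over the summed libraries. Of all genes, 31.5% were above it in the same comparison, and their median log2 ratio was -0.12. None of the 8 was called lower, against 0.279% of all genes. Tox2 was lower by the most (log2 -1.44), then Tox (-0.85), Irf4 (-0.78) and Nr4a2 (-0.70), and Nr4a3 by the least (-0.06, -0.55 to 0.42).

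**Figure D2:**
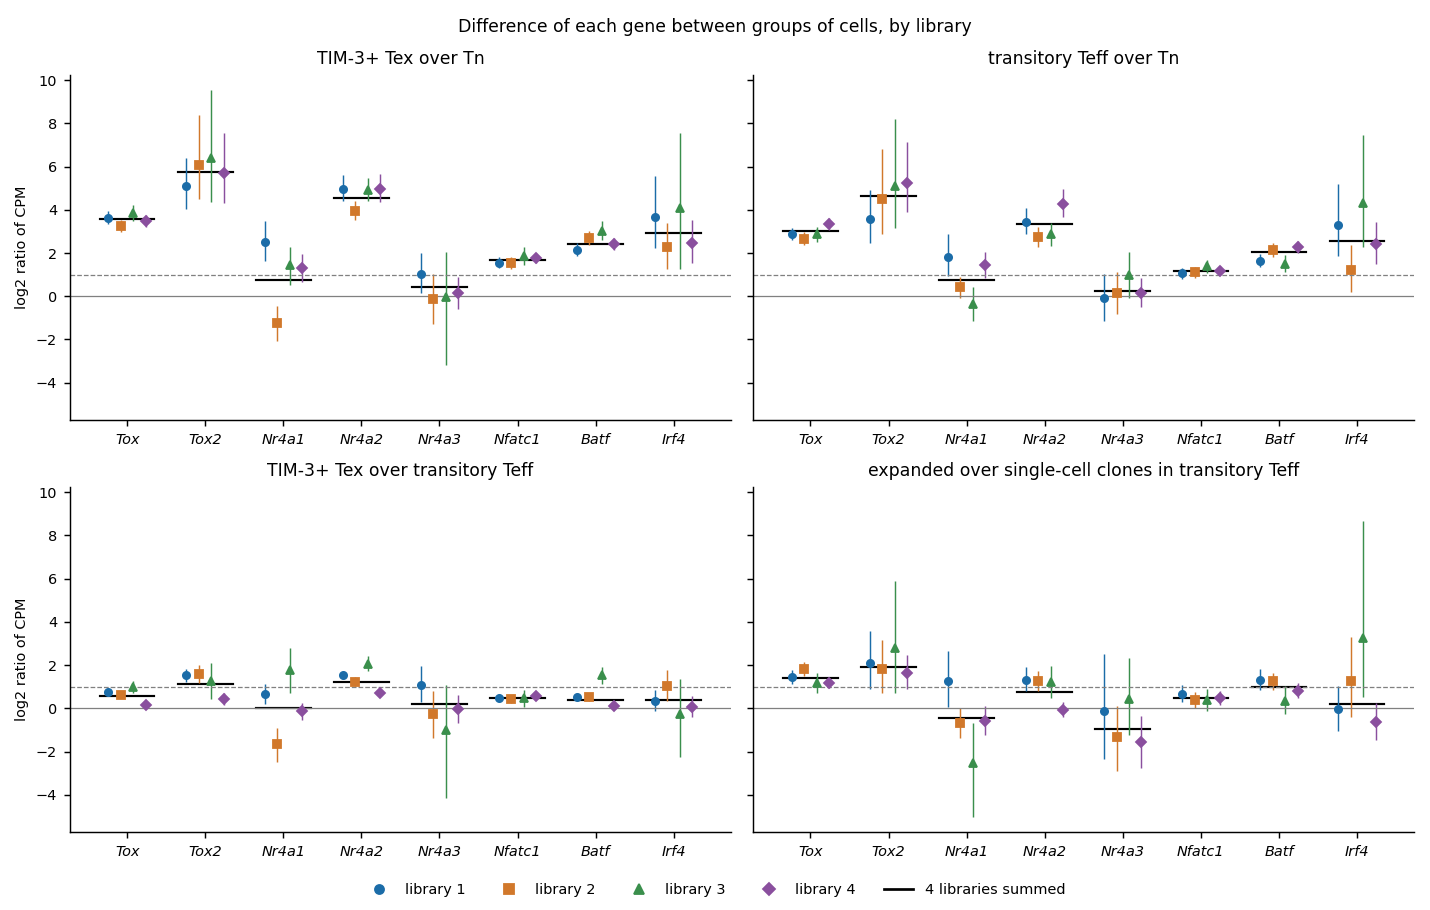
Each panel is 1 comparison, with the 8 genes on the x axis and the log2 ratio of CPM on the y axis, symbols for libraries 1 to 4 with 95% counting intervals, a bar for the libraries summed, and a dashed line at a 2-fold difference. The 6 called genes lie above the dashed line in all libraries in both comparisons with Tn, and in the panel of TIM-3+ Tex over transitory Teff the library 4 values of Tox2 (0.42) and Nr4a2 (0.70) lie below it.

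TIGIT+ Teff and TIM-3+ Tex differed in the levels of several of these factors, but none was called higher or lower. Of all genes, 2.30% were called higher in TIGIT+ Teff and 0.0223% lower. Tox differed by log2 -0.04, Tox2 was lower in TIGIT+ Teff (-0.67, -0.86 to -0.48) and Batf lower still (-0.96, -1.09 to -0.84), both in 4 of 4 libraries. Nr4a3 (0.99, 0.60 to 1.38), Irf4 (0.61) and Nfatc1 (0.47, 0.38 to 0.56) were higher over the summed libraries. Genes of long span moved with this comparison: the median log2 ratio was 0.33 over all genes, 0.84 over 949 genes of at least 100 kb and -0.13 over 2253 genes under 10 kb. Nfatc1 (107 kb), Tox2 (121 kb) and Tox (305 kb) lay below the median of the long genes. Against the 0.22 of genes of 10 to 30 kb, Batf (22.4 kb) lay below and Irf4 (17.8 kb) above. The part of gene length in these ratios was not tested.

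Clone size gives a grouping of cells that expression did not define. Within transitory Teff, cells of expanded clones (over 5 cells in their library) were compared with cells whose TCR was found once, 866 cells against 368. Tox was at 411, 457, 357 and 486 CPM in expanded clones and 150, 130, 158 and 214 in single cells, without overlap (log2 1.42, 1.27 to 1.58). Tox2 was at 40.9, 38.8, 40.6 and 61.7 against 9.59, 10.8, 5.94 and 19.8 CPM (log2 1.93, 1.39 to 2.51). These 2 of the 8 genes were called, against 0.100% of all genes, which is 9 genes. The other 7, named after their values were seen, were Tigit (476 against 165 CPM), Mir155hg (17.9 against 2.79), Ryr1, Stk32c, Phactr2, Twsg1 and Gm43042.

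Batf and Nr4a2 were higher in expanded clones without being called. Batf measured 177, 241, 122 and 190 CPM against 70.3, 101, 95.1 and 108 (log2 1.01, 0.80 to 1.22), higher in each library. Nr4a2 was higher in libraries 1 to 3 (140, 175 and 150 against 55.9, 73.1 and 65.4 CPM) and not in library 4 (123 against 128). Nfatc1 differed by 0.47 (0.28 to 0.66), Irf4 by 0.22 (-0.34 to 0.80), Nr4a1 by -0.45 (-0.85 to -0.05) and Nr4a3 by -0.94 (-1.66 to -0.22, with 35 UMIs on each side).

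The Tox difference was also graded. Over the libraries summed, Tox stood at 166 CPM in single cells, 329 in clones of 2 to 5 cells, 392 in clones of 6 to 20 and 467 above 20. Library 3 departed from that order, with 482 CPM in clones of 6 to 20 cells and 278 in its 48 cells of larger clones. Tox2 ran 12.8, 39.8, 43.2 and 50.6 CPM over the same classes, Batf 94.9, 172, 177 and 196, and Irf4 only 15.5 to 18.3. Among 26 clonotypes with 10 to 67 transitory Teff cells, Tox ranged from 58.9 to 718 CPM (median 478) and was above the single cells of the same library in 25. Tox2 was above in 20, Nfatc1 in 21, Batf in 19, Nr4a2 in 15, Irf4 in 9, Nr4a1 in 6 and Nr4a3 in 3.

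Naive-type transcripts moved with clone size as well. A UMI of Ccr7 or Il7r was found in 9.35% of expanded and 44.6% of single cells (5.20% and 30.2% thinned), at median depths of 4830 and 5908 UMIs. With those cells left out, a choice made after the values were seen, 785 and 204 cells remained, the log2 ratio of Tox was 0.98 and that of Tox2 1.2, and none of the 8 genes was called (2 of all genes were). Cells of transitory Teff with no TCR read held Tox at 281 CPM, with a median of 9427 UMIs.

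The same split was read in cycling cells, TIGIT+ Teff and TIM-3+ Tex. In cycling cells Tox was at 420, 377, 315 and 319 CPM in expanded and 179, 109, 119 and 125 in single cells (log2 1.37, 1.22 to 1.52), and Tox and Tox2 were again the called genes of the 8, against 0.212% of all genes. In TIGIT+ Teff Tox was at 729 against 300 CPM and was the 1 gene of the 8 called, against 0.0893% of all genes. In TIM-3+ Tex, where 42 cells were single, it was at 594 against 373 CPM, and 0 of the 8 were called, against 0% of all genes. In TIM-3+ Tex the ratio of Nfatc1 (251 against 105 CPM, log2 1.26, 0.80 to 1.75) exceeded that of Tox (log2 0.67, 0.42 to 0.93).

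**Figure D3:**
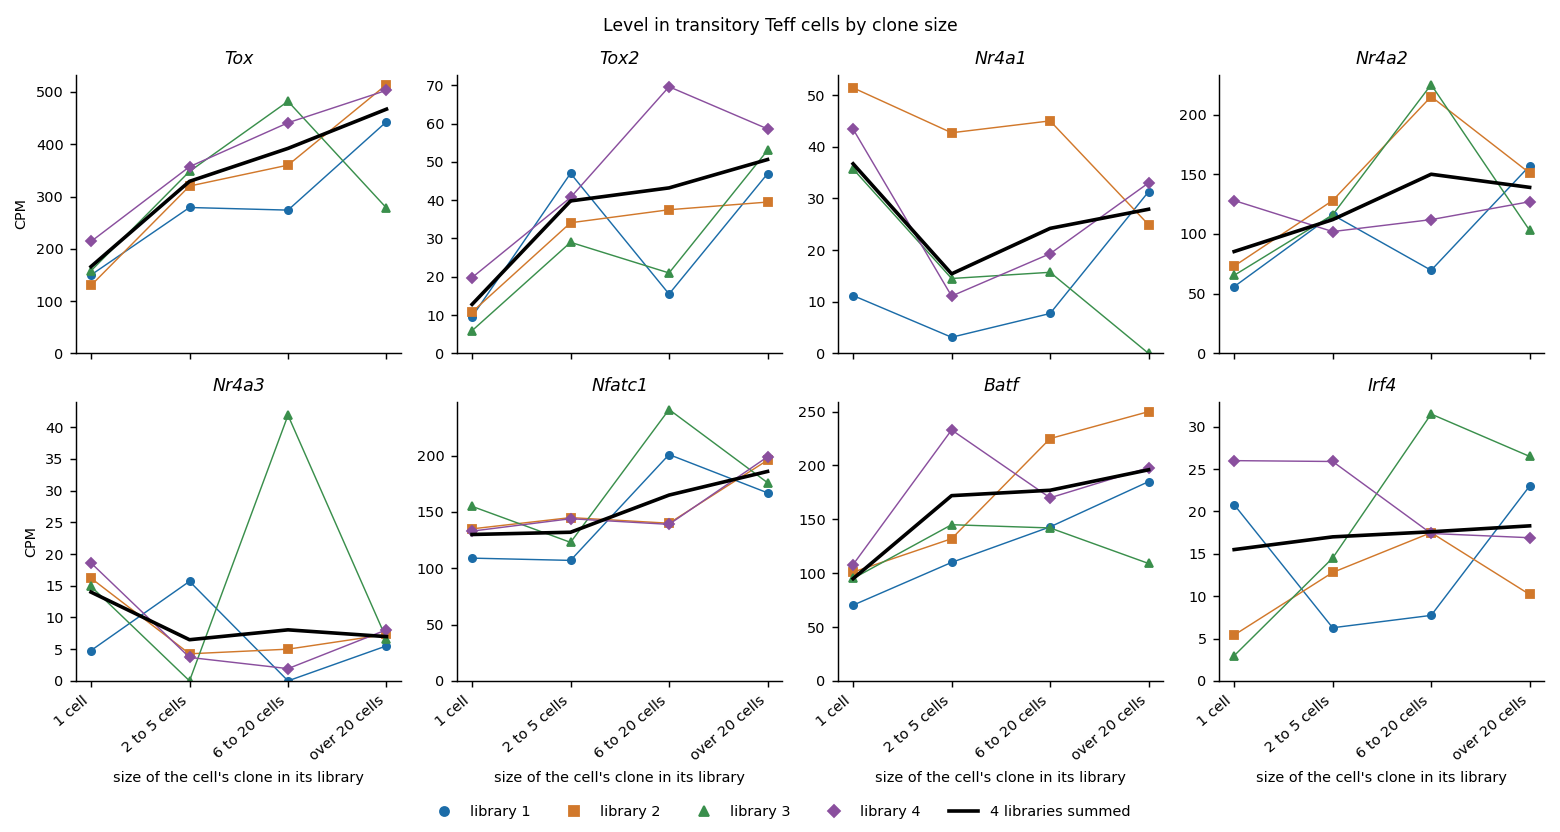
Each panel is 1 gene in transitory Teff cells, with 4 clone size classes on the x axis and CPM from 0 on the y axis, a line for each library and a thick line for the libraries summed. The summed line of Tox runs from 166 to 467 CPM while that of Irf4 stays between 15.5 and 18.3, and library 3 is lower in the last class of Tox than in the class before it.

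UMIs of the less abundant genes were gathered in fewer cells, Nr4a1 and Nr4a3 ahead of Irf4. The 1% of cells with most UMIs (118 cells) held 52.7% of the 1622 Nr4a1 UMIs and 39.5% of the 1130 Nr4a3 UMIs, and 25.6% of the 1264 Irf4 UMIs. They held 15.1% for Tox2, 14.6% for Nr4a2, 11.7% for Batf, 7.43% for Tox (25574 UMIs) and 7.14% for Nfatc1. Single cells reached 31 UMIs of Nr4a1 and 35 of Nr4a3.

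At least 5 UMIs of Nr4a1 were found in 72 cells, which held 42.8% of all its UMIs. They came from every library (27, 12, 11 and 22 cells) and every cluster, making up 0.234 to 0.980% of each. Other cells, weighted to the same clusters, serve here as the comparison. In the 72 cells Nr4a3 was at 181 CPM (153 to 212) against 8.96, and by library at 181, 143, 164 and 207. Nr4a2 was at 692 CPM (637 to 751) against 133, and Irf4 at 55.4 (40.6 to 73.9) against 14.2. Tox was nearly level, at 323 CPM (285 to 364) against 295.

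Other early response genes divided in the same cells. Egr1 and Egr2, zinc-finger factors induced by the TCR, were at 524 against 38.0 and 196 against 9.37 CPM. Jun was level at 101 (80.7 to 125) against 110, and Fos was at 199 against 105. Ccl4 and Ccl3, chemokines of activated CD8+ T cells, were at 8258 against 1091 and 2796 against 706 CPM. The 72 cells had a median of 9368 UMIs.

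Nr4a2 was strong in more cells, and their share differed more between clusters. At least 5 UMIs were found in 688 cells, which made up 20.8% of TIM-3+ Tex (220 cells) and 0.0745% of Tn (1 cell). Their median depth was 14788 UMIs, and 217 of them were cycling cells. In them Nr4a1 was at 66.4 against 11.1 CPM, Egr1 at 97.3 against 40.9, and Tox at 458 against 360.

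**Figure D4:**
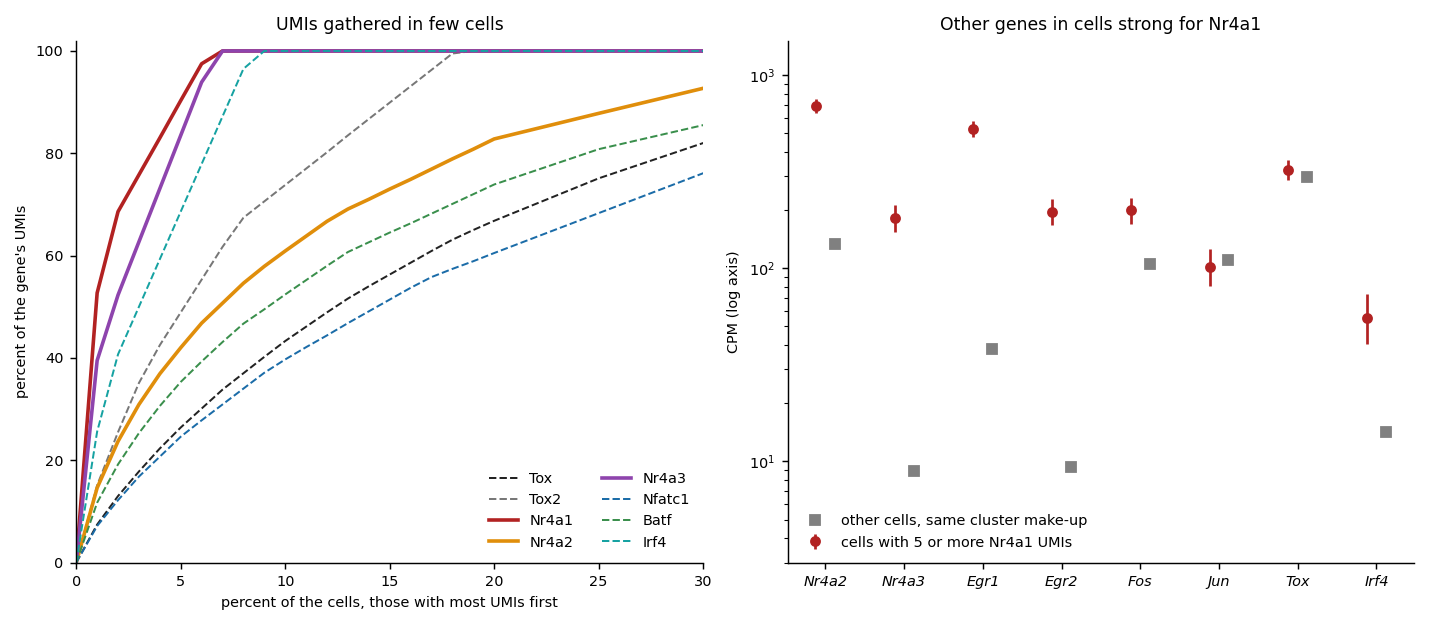
On the left, the x axis gives the percent of all cells, those with most UMIs first, and the y axis the percent of a gene's UMIs they hold, 1 line per gene. On the right, a log y axis gives the CPM of 8 genes in the 72 cells with 5 or more Nr4a1 UMIs (circles with 95% counting intervals) and in other cells of the same cluster make-up (squares). The Nr4a1 line reaches 52.7% at 1% of cells, and Nr4a3, Egr1 and Egr2 show the widest gaps while Jun and Tox show almost none.

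The clusters differed in how many of the 8 genes were seen per cell. After thinning, TIM-3+ Tex cells had UMIs of 2.17 of the 8 genes on average (1.99 to 2.39 by library), TIGIT+ Teff 1.97, cycling cells 1.59, GzmA+ Tex 1.44, transitory Teff 1.42, GzmB+ Teff 0.959, Tcm 0.586 and Tn 0.408. At least 4 of the genes were found in 12.6% of TIM-3+ Tex cells and 0.224% of Tn cells, and none in 7.01% and 65.9%. The averages follow from each gene's own share of cells, and no count expected from those shares was computed. Whether a cell had a Tox UMI went with small differences in TIM-3+ Tex and Tcm. For some genes the differences were larger in GzmB+ Teff, TIGIT+ Teff and GzmA+ Tex. In TIM-3+ Tex, Nr4a2 was found in 42.8% of cells with and 39.0% of cells without Tox, and Tox2 in 20.7% and 17.3%. The shares there were 41.3% and 34.7% for Nfatc1 and 36.9% and 41.3% for Batf. Tcm had Nr4a2 in 8.25% and 6.89%, and Batf in 9.28% and 10.2%. In GzmB+ Teff, Nr4a2 was found in 26.9% of cells with and 8.33% of cells without Tox, and Tox2 in 7.87% and 0.969%. In TIGIT+ Teff the shares were 42.7% and 25.9% for Nr4a2 and 59.3% and 42.3% for Nfatc1, and in GzmA+ Tex 11.7% and 3.92% for Tox2.

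Across the 32 cluster and library values, genes whose level was among the most like that of Tox were the receptor genes Pdcd1, Tigit and Lag3, each with a Pearson r of 0.98 on log2(CPM + 10). Slc22a15 (0.96), Rgs16 and Sh2d2a were among the most like Tox2, and Vamp8 (0.96), Tigit and Bcl2a1d among the most like Batf. Nr4a2 was most like Ccl3 and Ccl4 (0.97 each), then Ptms and Ubash3b, and Nfatc1 most like Arid5b (0.98), Foxn3, Trps1 and Prex1. Irf4 was most like Eif4enif1 (0.94), Kmt2e, Hip1 and Itgav. The nearest to Nr4a1 was Egr1 at 0.80, followed by Tagap, Ccdc59 and Orai1, and nothing passed 0.72 for Nr4a3, whose nearest were Vps26b, Ube2q2, Clpx and Vav1. Among the 8 genes, Tox had an r of 0.96 with Nr4a2 and 0.95 with Tox2, but 0.54 with Nr4a1 and 0.06 with Nr4a3, and Nr4a1 and Nr4a3 had 0.17 with each other. The points share libraries and sequencing depth, and their number is small beside the 5670 genes searched.

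Other genes of these pathways were read in the same comparison, in which 5.59% of all genes were called higher. From Tn to TIM-3+ Tex, 1 of 21 calcium, calcineurin and NFAT genes was called higher (Nfat5, log2 1.27), with a list median of 0.45, and Nfatc2 stood at -0.52. Of 14 AP-1, BATF and IRF partner genes, Irf8 (3.16) and Runx3 (1.15) were called higher and Bach2 (-1.30), a repressor that holds T cells in a resting state, lower, with a median of -0.11. Of 14 immediate early genes, Egr2 (3.12) and Tnfaip3 were called higher, with a median of 0.50, and Myc stood at -1.01. In the list of TOX relatives and chromatin partners 1 of 9 was called, Hmgb2 (1.18), with a median of 0.56.

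Surface receptors of exhaustion were mostly higher in TIM-3+ Tex. Of 15, 14 were called higher, with a median of 4.45, among them Havcr2 (6.25) and Cd244a (6.09), while Nt5e (-2.67) was called lower. Of 14 effector and exhaustion factors 9 were called higher (median 1.77), led by Maf (5.87) and Prdm1 (4.63), and Tbx21 stood at -0.19. Of 12 stem and quiescence factors 9 were called lower, against 1.31% of all genes, with Satb1 (-2.90) and Lef1 (-2.75) the lowest and Bcl6 at 0.69.

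Transcripts of other cell types were present at differing levels. The 7 macrophage genes, all with UMIs there, summed to 1398 CPM in GzmA+ Tex (934 to 1627 by library, 92.8% of cells) and to 6.33 to 77.0 CPM in the other clusters, where Adgre1 was at 0 in GzmB+ Teff. In GzmA+ Tex, Tox was at 293 CPM in 530 cells with and 248 in 41 cells without macrophage UMIs, intervals overlapping. With intervals apart, Tox was higher in cells with macrophage UMIs in GzmB+ Teff (223 against 169 CPM), cycling cells (340 against 302) and Tn (74.1 against 38.8). In transitory Teff it was lower in them (288 against 331 CPM). Plasma and myeloma cells also use Irf4, and their list summed to 128 to 226 CPM by cluster, with Mzb1 and Tnfrsf17 at 0 in TIM-3+ Tex and Tn. Within that list Ighm was at 121 CPM in Tn and 39.1 in TIM-3+ Tex, while Igkc was at 2.94 CPM in Tn (2.31% of cells) and 48.4 in TIM-3+ Tex (25.3%), a log2 ratio of 4.04 (2.97 to 4.92 by library) in the same direction as Irf4. Irf4 in GzmA+ Tex was at 19.7 CPM (14.0 to 26.8) in cells with UMIs of Igkc, Jchain, Mzb1, Sdc1 or Tnfrsf17 and 10.3 (7.51 to 13.7) without, and in TIM-3+ Tex at 18.4 and 20.2. Irf4 was not alone in GzmA+ Tex. There Tox was at 345 CPM with and 266 without those UMIs, Tox2 at 57.0 and 36.3, Nr4a2 at 201 and 156, and Batf at 180 and 129, intervals apart. Nfatc1 was at 170 and 142 CPM, Nr4a1 at 18.2 and 17.6, and Nr4a3 at 9.83 and 10.7. Nor was GzmA+ Tex alone. With and without those UMIs, Tox was at 294 and 164 CPM in GzmB+ Teff and 396 and 309 in transitory Teff. It was at 560 and 441 CPM in TIGIT+ Teff and 88.0 and 38.2 in Tn, all with intervals apart. The intervals overlapped in Tcm (81.0 and 63.8 CPM), cycling cells (324 and 310) and TIM-3+ Tex (457 and 480). B cell genes summed to 4.59 to 16.5 CPM, and CD4, regulatory T and NK cell genes to 0.183 to 7.67. The part of carried-over RNA in the other values was not tested.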

How the data were processed

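Per the labels, CD8+ T cells were sorted from BM of 4 groups, 1 library of 5 mice each. The authors ran cellranger (Cell Ranger 7.00 and mm10 in the submitters' processing notes), downsampled reads across libraries, filtered cells on UMIs, mitochondrial RNA and detection of CD3 and CD8 genes, and clustered with Monocle3. The deposited expression table holds raw UMI counts per gene and cell. Cluster assignments, library numbers and scRepertoire TCR calls were used as the authors deposited them, with Tex_Cycling renamed cycling cells and Transitionary_effector_cells renamed transitory Teff. No source used here ties a library number to a treatment. Gene names came from GENCODE M21 (17534 of 17561 IDs had a symbol).

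UMI counts were summed per cluster and library and divided by all UMIs of those cells (CPM), which are not corrected for gene length. Intervals are exact Poisson for CPM and conditional binomial for ratios. A gene had to reach 5 CPM over all cells, and was called where it was at least 2-fold higher (or lower) in every library, a count of 0 being set to 3 counts. Shares of cells were recomputed after thinning each cell to 2500 UMIs (seed 11), which left out no cell. Clones were defined by identical TCR chains within a library, single with 1 cell and expanded with over 5. Doublets were not removed, and 722 cells carried more than 1 TRB chain. Genes named are the 8, for each the 4 most alike by Pearson r among genes of at least 20 CPM, and up to 4 extremes per list, plus called genes where few. Some genes that this rule names are not reported here. The 8 genes and the lists were chosen with earlier results of these data known. Values were computed in Python 3.11.15 (scipy 1.17.1, numpy 2.4.6, matplotlib 3.10.9, pandas 2.3.3) with code tested on simulated data. Alternatives changed the fold, the filter, the clusters, the depth, the denominator, the cells kept and the libraries. Promoter sequences were from RefSeq (GRCm38.p6).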

Additional observations from a re-analysis of the deposited data

How the results depend on the processing

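Of 60 alternative counts of called genes among the 8, 45 were unchanged and 52 lay within 1.5 times. Of 416 alternative log2 ratios 333 stayed inside the counting interval, 6 uncalled ones changed sign, and no called one did. In TIM-3+ Tex over transitory Teff the count of 0 became 1 (Nr4a2) with Leiden cluster numbers and 1 with a 1.5-fold threshold, and ranged from 0 to 2 with a library left out, where library 4 decided it. In transitory Teff over Tn the count of 6 became 3 at 3-fold (Tox, Tox2 and Nr4a2). In expanded over single clones the count of 2 became 1 at 3-fold (Tox2), 1 with cells carrying other cell types' UMIs left out (Tox), 1 with Ighm not counted among those (Tox2), and 0 without cells carrying Ccr7 or Il7r, the last 2 choices made after seeing the data. A call needs the fold in every library, so leaving out a library or lowering the fold could only keep or add calls. Such alternatives are among the 60 counts. Leaving out a library gave 6 to 7 calls in TIM-3+ Tex over Tn (Nr4a1 joined without library 2), 6 to 6 in transitory Teff over Tn, and 2 to 3 in the clone comparison (Nr4a2 joined without library 4). The causes were not tested. Nr4a1 in TIM-3+ Tex over Tn was at log2 1.25 without library 2 and 0.30 without library 1. No paired analysis was possible between treatments, because each group is 1 library and no source ties its number to a group. Clusters and clone classes were compared within each library throughout, so every ratio by library is already a paired value. Depth limits Tox2 and Irf4 in Tn, which rest on 16 and 28 UMIs.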
